A study of Mus musculus with 15 samples.

Results

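The genes described here are 10 imprinted genes linked in the field to the quiescence of blood stem cells: H19, Igf2, Igf2r, Dlk1, Meg3, Cdkn1c, Grb10, Ndn, Peg3 and Mest. They were taken by symbol from a table of 38315 mouse genes, and all 10 were present. Total RNA of 15 bone marrow samples had been sequenced in 3 groups. The AML group held marrow of 7 NUP98-NSD1/FLT3-ITD transgenic mice with acute myeloid leukaemia, which carry the NUP98-NSD1 fusion and an internal tandem duplication in Flt3. Normal marrow came from wild-type mice, as 4 samples of whole marrow and 4 of lineage-negative marrow, the latter depleted of cells with antigens of mature blood lineages. Strain, age, sex, the promoters that drive the transgenes and any treatment are not given in the sources used here, and the AML marrow is not labelled as sorted. The labels number the wild-type samples without saying whether each came from its own mouse, so p-values measure the spread between these samples.

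An imprinted gene is transcribed mainly from the copy of a single parent, under the control of DNA methylation set in the germ line. H19, Igf2r, Meg3, Cdkn1c and Grb10 are known as maternally expressed genes in most mouse tissues, and Igf2, Dlk1, Ndn, Peg3 and Mest as paternally expressed genes. Several of them restrain growth: Igf2r clears the growth factor IGF2, Grb10 dampens insulin and IGF1 receptor signalling, and Cdkn1c inhibits cyclin-dependent kinases. Bulk read counts do not separate the parental copies, so imprinting itself was not measured.

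All values below are normalized counts, which are estimated reads divided by a size factor for each library. Estimated depth was 20.3 to 35.1 M reads in AML, 11.4 to 17.2 M in whole marrow and 20.3 to 28.1 M in lineage-negative marrow. A floor of 3 reads corresponded to 1.96 to 4.09 normalized counts, and it covers counting error only. Group differences are in log2(value + 1), with standard errors (SE), from a limma fit over 18941 genes, of which 8 are members. The filter, a value of at least 10 in at least 4 libraries, removed H19 and Ndn. A gene was called at a Benjamini-Hochberg adjusted p under 0.05 and a log2 difference of at least 1 in either direction. The median difference of all genes tested was 0.67 when AML was set against whole marrow and 0.02 against the lineage-negative samples, and 0.59 between both normal groups (lineage-negative minus whole). Olfactory and vomeronasal receptor genes, which blood cells are not known to use, gave 1.88 to 3.54 normalized counts per kb in whole marrow. Their level per kb was 0.120 to 0.996 in the AML libraries and 0.0969 to 0.137 in the lineage-negative ones. AML replicate 6 was the AML library at 0.996. Of the marker lists, neutrophil and monocyte genes summed to 448735 to 1356850 in AML, 412630 to 1110100 in whole marrow and 99087 to 166855 in lineage-negative marrow.

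Igf2r alone was above 10 in all 15 libraries. In AML, 2 members were above 10 in every library, Igf2r and Cdkn1c, and H19 and Ndn were in none. In whole marrow 6 members were above 10 in every library, namely Dlk1, Grb10, Igf2, Igf2r, Meg3 and Peg3, and each of the 10 passed it in some library. In lineage-negative marrow Grb10 and Igf2r were above 10 in every library, and Dlk1, Igf2, Ndn and Peg3 in none. Of single values, 30 of 70 were above 10 in AML, 34 of 40 in whole marrow and 15 of 40 in lineage-negative marrow. The receptor-gene level per kb, times exon length, gave whole marrow means of 14.2 (Dlk1) to 45.5 (Meg3) for these 6 whole marrow members. The highest such mean of any member was 5.47 in AML and 2.12 in lineage-negative marrow, both for Meg3. Passing 10 in whole marrow thus does not by itself set a member above the receptor genes.

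**Figure D1:**
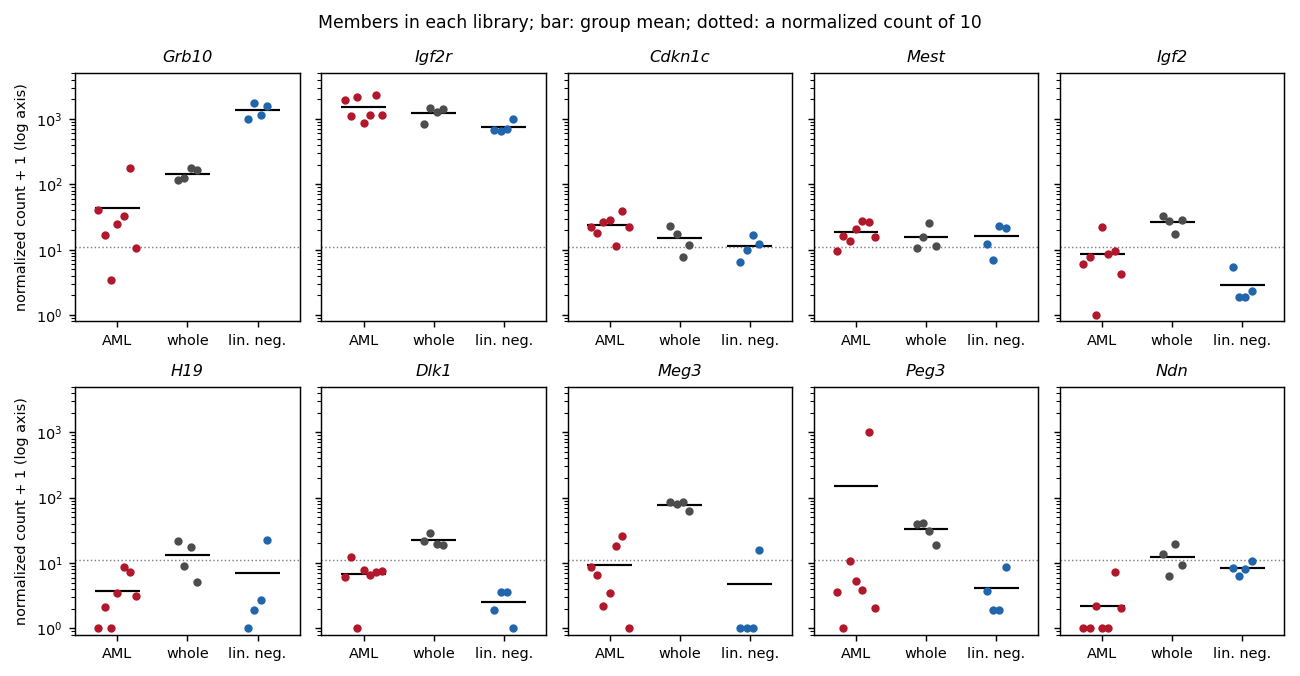
Normalized counts plus 1 (log axis) of the 10 members in 7 AML, 4 whole and 4 lineage-negative (lin. neg.) marrow libraries, with each group's mean as a bar and a dotted line at a count of 10. Grb10 lies between 1003 and 1722 in lineage-negative marrow and between 2.45 and 179 in AML, while Peg3 has 1 AML library at 1012.

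Sequences just upstream of an annotated start are shown for 4 members. Grb10 and Igf2r are the members with group means over 100 in more than 1 group. Dlk1 and Meg3 share a domain and differed alike. Each sequence is the 250 bases before the farthest upstream start that the RefSeq table lists for the gene in GRCm38.p6. It is read on the gene's own strand, with CG dinucleotides in capitals. The table of promoters had windows for 8 of the 10 members, without H19 and Cdkn1c. None of the 4 windows overlaps an annotated exon. The gene coordinates given here come from the GENCODE annotation, which starts Grb10 farther upstream (chr11:11930508-12038683, minus strand). By those bounds the Grb10 window lies inside the gene. They lie at chr11:12037421-12037670 (minus strand, Grb10), chr17:12769707-12769956 (minus strand, Igf2r), chr12:109452573-109452822 (plus strand, Dlk1) and chr12:109540746-109540995 (plus strand, Meg3).
Grb10: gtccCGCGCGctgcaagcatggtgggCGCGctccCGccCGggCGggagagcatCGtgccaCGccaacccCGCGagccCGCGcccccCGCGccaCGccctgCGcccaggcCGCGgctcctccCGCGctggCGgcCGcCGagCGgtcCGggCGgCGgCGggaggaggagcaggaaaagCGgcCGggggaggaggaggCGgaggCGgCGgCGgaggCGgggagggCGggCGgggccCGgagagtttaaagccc
Igf2r: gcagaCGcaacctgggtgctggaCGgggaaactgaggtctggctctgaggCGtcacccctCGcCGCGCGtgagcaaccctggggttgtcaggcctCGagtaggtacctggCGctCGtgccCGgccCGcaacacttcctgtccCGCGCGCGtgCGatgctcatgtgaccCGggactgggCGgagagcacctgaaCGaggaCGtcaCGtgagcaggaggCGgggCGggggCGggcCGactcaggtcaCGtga
Dlk1: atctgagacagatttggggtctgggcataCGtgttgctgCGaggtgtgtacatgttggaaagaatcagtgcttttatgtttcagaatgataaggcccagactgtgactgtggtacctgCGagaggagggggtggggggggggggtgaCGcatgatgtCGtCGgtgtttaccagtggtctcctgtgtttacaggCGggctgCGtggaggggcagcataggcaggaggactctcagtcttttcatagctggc
Meg3: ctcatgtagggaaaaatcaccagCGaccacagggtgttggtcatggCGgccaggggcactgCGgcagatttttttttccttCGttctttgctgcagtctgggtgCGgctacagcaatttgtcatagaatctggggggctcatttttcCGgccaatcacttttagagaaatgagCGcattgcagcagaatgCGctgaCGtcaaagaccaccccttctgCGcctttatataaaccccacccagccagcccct

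The Grb10 window held 40 CG dinucleotides, and 98.7% of 32851 mouse windows of this length held fewer. The Igf2r window held 27, with 91.4% of windows below it. The windows of Meg3 and Dlk1 held 10 and 8, near the median of 6 over all windows. The letters GGGCGG, counted on both strands, occurred 5 times in the Grb10 window and 3 times in that of Igf2r, and 32.7% of all windows held them. CACGTG, which reads alike on both strands, occurred at 2 places upstream of Igf2r and in 6.02% of all windows. The Meg3 window held TATAAA on both strands in overlapping positions, which 12.4% of windows held on either strand, and TGACGTCA once, which 1.55% held. These matches describe the letters of the windows and no binding was measured.

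Grb10, at chr11:11930508-12038683 in GRCm38 (minus strand, protein coding), was lower in AML than in both kinds of normal marrow and far higher in lineage-negative marrow than in whole marrow. Its normalized counts were 1003, 1722, 1160 and 1574 in lineage-negative replicates 1 to 4, and 117, 122, 176 and 165 in whole marrow. In AML they had a lowest value of 2.45, a median of 23.7 and a highest of 179. All 7 AML libraries lay under every lineage-negative library, and 6 of 7 under every whole marrow library, the exception being replicate 6. The group means were 43.1 ± 61.2 (SD, n = 7) in AML, 145 ± 30.1 (n = 4) in whole marrow and 1365 ± 339 (n = 4) in lineage-negative marrow. Without replicate 6 the AML mean was 20.5 ± 13.9 (n = 6).

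The log2 difference of Grb10 was −5.84 (SE 0.65) between AML and lineage-negative marrow, with an adjusted p of 4.49e-07 by limma. Against whole marrow it was −2.63 (SE 0.65, adjusted p = 0.00173 by limma). Lineage-negative marrow exceeded whole marrow by 3.21 (SE 0.73, adjusted p = 0.000774 by limma). Grb10 was called in all 3 comparisons under each of the alternatives tried, and without AML replicate 6 its difference from lineage-negative marrow was −6.33. In bulk RNA, fewer cells of a type and less RNA in each cell cannot be told apart.

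Marker lists of other cell states differed between the groups too, in orders that only in part match that of Grb10. The 10 markers of stem and early progenitor cells summed to 2970 to 5658 in AML, 1167 to 2251 in whole marrow and 10841 to 15777 in lineage-negative marrow, and 6 of 10 were called lower and 1 higher in AML than in lineage-negative marrow. Against whole marrow, where Grb10 was lower in AML, 3 of these 10 (30%) were called higher in AML and 1 (10%) lower. These shares are near the 27.3% and 11.3% of all genes. The 5 megakaryocyte markers summed to 74.8 to 491, 581 to 1652 and 2107 to 3235 in the same order of groups, and 4 of 5 were lower in AML than in lineage-negative marrow and 5 of 5 lower than in whole marrow. Between lineage-negative and whole marrow, 1 was higher and 1 lower. The 9 erythroid markers summed to 314 to 22255, 576403 to 1403880 and 19474 to 43685, and 5 of 9 were lower in AML than in lineage-negative marrow and 9 of 9 lower than in whole marrow. In lineage-negative against whole marrow 5 of 9 were lower and 2 higher, the opposite direction to Grb10 for most of them. Of all genes, 12.5% were called lower and 17.7% higher in AML than in lineage-negative marrow. In lineage-negative against whole marrow 17.2% were lower and 33.1% higher. No marker of these lists was at 0 throughout a group. Their part in the Grb10 difference was not tested.

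Igf2r, the receptor that takes up IGF2 and carries it to lysosomes, was the member with the highest level per kb in AML and whole marrow. It lies at chr17:12682406-12769664 (minus strand, protein coding). Its counts in lineage-negative replicates 1 to 4 were 680, 657, 702 and 1014, and in whole marrow 826, 1450, 1297 and 1427. In AML the lowest was 857, the median 1156 and the highest 2311. The AML libraries overlapped with whole marrow, and 6 of 7 lay above every lineage-negative library. The means were 1528 ± 595 (SD, n = 7) in AML, 1250 ± 291 (n = 4) in whole marrow and 763 ± 168 (n = 4) in lineage-negative marrow.

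AML exceeded lineage-negative marrow (log2 difference 0.93, SE 0.26, adjusted p = 0.00647 by limma), just under the size required for a call. Without lineage-negative replicate 4, the highest of its group, the difference was 1.07, and without AML replicate 4 it was 1.05, both past that size. The difference from whole marrow was 0.23 (SE 0.26, adjusted p = 0.454 by limma) and took the opposite sign, −0.47, when libraries were scaled by the TMM method (trimmed means of M values). Between lineage-negative and whole marrow it was −0.70 (SE 0.29, adjusted p = 0.0445 by limma), under the size for a call, and −1.40 with TMM, which is a call. Airn, the antisense transcript that overlaps Igf2r, ranged from 3.78 to 18.5 in AML, from 5.36 to 22.4 in whole marrow and from 6.17 to 29.4 in lineage-negative marrow, and was not called in any comparison as deposited. With the signal of the receptor genes subtracted, Airn was called higher than whole marrow in both AML and lineage-negative marrow. The strand used for counting is not stated, so reads of Igf2r and Airn may not be separated.

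Igf2, the fetal growth factor that binds IGF1R, was low in all groups. It lies at chr7:142650766-142666816 (minus strand, protein coding), and 72.6 kb separate it from H19, the long noncoding RNA at chr7:142575529-142578143 (minus strand). Igf2 was at 31.6, 26.8, 16.7 and 27.3 in whole marrow and at 4.54, 0.881, 0.881 and 1.31 in lineage-negative marrow. In AML it ranged from 0 to 21.1 with a median of 6.75. Only AML replicate 4, at 21.1, reached into the whole marrow values. The log2 difference from whole marrow was −2.06 in AML (SE 0.61, adjusted p = 0.00682 by limma) and −3.32 in lineage-negative marrow (SE 0.69, adjusted p = 0.000356). AML and lineage-negative marrow differed by 1.26 (SE 0.61, adjusted p = 0.102 by limma). Igf2 was above 10 in 5 libraries, 4 of them whole marrow, and passing the filter in this way favours lower calls against that group.

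H19 was at 20.6, 8.04, 16.7 and 4.09 in whole marrow, and in AML it ranged from 0 to 7.55 with a median of 2.16. In lineage-negative marrow it was at 0, 0.881, 1.76 and 21.5. The last value, from replicate 4, was the highest of all 15 libraries, while the other lineage-negative libraries were under the floor of 3 reads. A further fit took the 38181 genes detected in any library, H19 among them. Its difference between AML and whole marrow was −2.03 there (SE 0.79, adjusted p = 0.0344 by limma). In that comparison 43.5% of genes were called in either direction. The marrow stroma and bone markers gave uneven values in the lineage-negative group. Col1a1 was at 29.95, 722, 1.76 and 418 in replicates 1 to 4, and Col3a1 at 21.8, 1.76, 5.29 and 382. Other markers of the list did not follow, such as Cxcl12 at 364, 87.2, 105 and 44.4 and Ibsp at 66.3, 16.7, 7.93 and 14.4, and the sum of the list was higher in replicate 2 (2056) than in replicate 4 (1803). The 12 stroma and bone markers together summed to 1001 to 2056 in lineage-negative marrow, 1270 to 2439 in whole marrow, where Bglap was at 0, and 414 to 1965 in AML. Of the 11 tested, 7 were called lower and 1 higher in lineage-negative than in whole marrow, with a median of −2.42. In that comparison 17.2% of all genes were called lower and 33.1% higher. Col1a1, Col3a1, Cxcl12 and Ibsp were picked after their values were seen, and the part of these markers in the H19 value of replicate 4 was not tested.

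Dlk1 and Meg3 lie 77.7 kb apart in an imprinted domain of chromosome 12. Dlk1 (chr12:109452823-109463336, plus strand) encodes a transmembrane protein related to Notch ligands, and Meg3 (chr12:109541001-109571726, plus strand) a long noncoding RNA that is expressed from the other parental copy. Meg3 was at 85.3, 77.7, 85.6 and 61.4 in whole marrow and at 0, 0, 0 and 15.01 in lineage-negative marrow. In AML it ranged from 0 to 24.7 with a median of 5.62, so every AML and lineage-negative library was below every whole marrow library. Dlk1 was at 20.6, 28.1, 18.8 and 17.7 in whole marrow, between 0 and 2.64 in lineage-negative marrow, and between 0 and 11.2 in AML with a median of 6.17. The same separation from whole marrow held for Dlk1, but in lineage-negative marrow all 4 of its values were at or under the floor of 3 reads.

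For Meg3 the log2 difference from whole marrow was −3.76 (SE 0.82, adjusted p = 0.000647 by limma) in AML and −5.28 (SE 0.93, adjusted p = 6.40e-05) in lineage-negative marrow. For Dlk1 it was −1.94 (SE 0.57, adjusted p = 0.00641 by limma) in AML and −3.29 (SE 0.65, adjusted p = 0.000196) in lineage-negative marrow. Neither was called between AML and lineage-negative marrow, where Dlk1 differed by 1.36 (SE 0.57, adjusted p = 0.0602 by limma) and Meg3 by 1.52 (SE 0.82, adjusted p = 0.141). That value of Meg3 rests on lineage-negative replicate 4. Without that library the other 3 were at 0 and Meg3 was called higher in AML, with an adjusted p of 0.0109 by limma. Dlk1 and Igf2 were called higher in AML than in lineage-negative marrow without AML replicate 3, in which both were at 0, with adjusted p-values of 0.00278 and 0.00709 by limma. Dlk1 was above 10 in 5 libraries and Meg3 in 7, each with all 4 whole marrow libraries among them. Passing the filter in this way favours lower calls against whole marrow.

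Markers of several cell types were lower together with Meg3, Dlk1 and Igf2 in the comparisons with whole marrow. The 6 B cell markers were called lower in AML and in lineage-negative marrow, 6 of 6 in each, and summed to 3393 to 7316 in whole marrow, against 461 to 4999 among the AML libraries and 305 to 527 among the lineage-negative ones. Erythroid markers were lower in 9 of 9 in AML and 5 of 9 in lineage-negative marrow, where 2 were higher. Stroma and bone markers were lower in 2 of 11 and 7 of 11, with 1 higher in lineage-negative marrow. Of megakaryocyte markers, 5 of 5 were lower in AML, and 1 was lower and 1 higher in lineage-negative marrow. Of all genes, 11.3% were called lower in AML and 17.2% in lineage-negative marrow. The stroma and bone share in AML (18.2%) was not far from that. The part of these markers in the differences of Meg3, Dlk1 and Igf2 was not tested.

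The whole marrow levels of these low members were close to those of the receptor genes. Per kb of exons, Meg3 was at 1.33 to 2.03 times the receptor genes of the same whole marrow library, Dlk1 at 1.03 to 2.14 times, Igf2 at 1.25 to 2.54 times and H19 at 0.886 to 2.92 times. For Peg3 the ratio was 0.709 to 1.30, for Ndn 0.6246 to 2.19 and for Mest 0.678 to 2.64, and Cdkn1c was at 1.40 to 3.52 times. Grb10 stood at 3.63 to 9.68 times and Igf2r at 25.1 to 81.7 times. The median ratio was lower in AML than in whole marrow for Meg3 (1.37 against 1.83) and Ndn (0 against 1.07). For every other member it was higher in AML, as for Dlk1 (5.98 against 1.55), Igf2 (3.84 against 1.79) and Grb10 (10.3 against 7.06). Such a ratio also rises where the receptor-gene level is low, as in AML. When the receptor-gene signal per kb was subtracted from every gene, Meg3 was still called lower than whole marrow in AML (−3.43, adjusted p = 0.00189 by limma) and in lineage-negative marrow (−4.04, adjusted p = 0.00130). Dlk1 lost both calls (−0.57 in AML and −1.77 in lineage-negative marrow). Igf2 lost the call in AML (−1.16, adjusted p = 0.132 by limma) and kept that in lineage-negative marrow (−2.53, adjusted p = 0.00767).

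**Figure D2:**
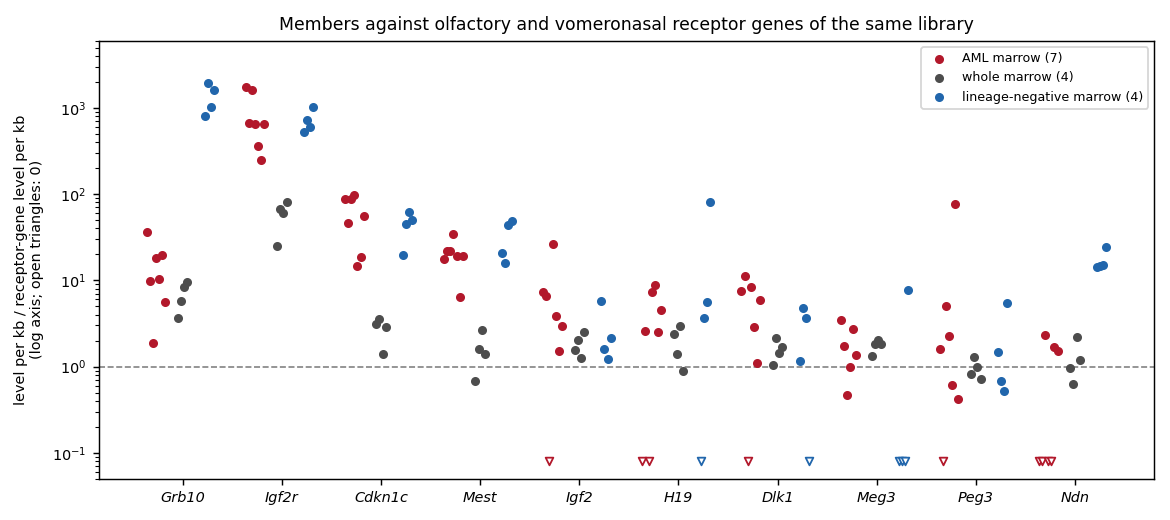
Level per kb of exons of each member divided by the level per kb of olfactory and vomeronasal receptor genes of the same library (log axis), with the value 1 dashed and values of 0 as open triangles. In whole marrow Meg3, Igf2, H19, Dlk1, Peg3, Ndn and Mest lie between 0.6246 and 2.92, Cdkn1c reaches 3.52, and Igf2r lies between 25.1 and 81.7.

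Cdkn1c, which encodes the cyclin-dependent kinase inhibitor p57, was low but above 10 in each AML library. It lies at chr7:143458339-143461050 (minus strand, protein coding). Its counts were 5.45, 8.81, 15.9 and 11.1 in lineage-negative replicates 1 to 4 and 22.4, 16.7, 6.66 and 10.9 in whole marrow. In AML the lowest was 10.4, the median 21.6 and the highest 38.3. Thus 6 of 7 AML libraries lay above every lineage-negative library, and 3 of 7 above every whole marrow library. The means were 23.2 ± 8.79 (SD, n = 7) in AML, 14.2 ± 6.87 (n = 4) in whole marrow and 10.3 ± 4.37 (n = 4) in lineage-negative marrow.

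AML exceeded lineage-negative marrow by 1.09 (SE 0.41, adjusted p = 0.0356 by limma), which passed both thresholds. The call was lost in 13 of 22 alternatives, among them leaving out AML replicate 3, 4 or 6 or lineage-negative replicate 1, 2 or 4, and the adjusted p ranged from 0.0155 to 0.244. Against whole marrow the difference was 0.70 (SE 0.41, adjusted p = 0.139 by limma), and it was called with the receptor-gene signal subtracted (1.40, adjusted p = 0.0178) and with quantile scaling (1.29).

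Ndn, which encodes necdin, a protein that binds E2F1 and p53 and is known for holding stem cells out of cycle, had reads in each normal library, but in whole marrow at a level like that of the receptor genes. It is a single-exon gene at chr7:62346569-62350262 (plus strand). Its counts were 7.26, 5.29, 7.05 and 9.79 in lineage-negative marrow and 12.6, 5.36, 18.8 and 8.19 in whole marrow. In AML 4 libraries were at 0, and replicate 6 at 6.17 was the highest. Per kb, lineage-negative Ndn was at 14.3 to 24.6 times the receptor genes of its library. In the fit of all 38181 genes Ndn was lower in AML than in lineage-negative marrow (log2 difference −2.31, SE 0.55, adjusted p = 0.00419 by limma), in a comparison where 6.65% of those genes were called lower. Against whole marrow it was −2.76 (SE 0.55, adjusted p = 0.000404 by limma), where the Ndn level per kb was above that of the receptor genes in 2 of 4 whole marrow libraries. The share of genes called in either direction in that comparison is the one given with H19. Ndn rests on 7 reads over all 7 AML libraries and on 37 reads over the 4 lineage-negative libraries.

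Peg3, a zinc finger gene at chr7:6703892-6730431 (minus strand), was near the floor in most AML and lineage-negative libraries and very high in 1 AML library. In AML it was at 1012 in replicate 6 and between 0 and 9.80 in the other 6, with a median of 2.83 over all 7. It was at 38.6, 40.2, 30.3 and 17.7 in whole marrow and at 2.72, 0.881, 0.881 and 7.83 in lineage-negative marrow. The mean in AML was 147 ± 381 (SD, n = 7), and 3.41 ± 3.46 (n = 6) without replicate 6. In that library Peg3 stood at 76.3 times the receptor genes per kb. Its neighbour Usp29 was at 22.2 there, against 0 to 2.16 in the other AML libraries and 35.5 to 73.8 in whole marrow. Zim1, also beside Peg3, was at 1.23 in replicate 6 and at 5.66 in AML replicate 5. The receptor-gene level of replicate 6 was 0.996 per kb, against 0.120 to 0.344 in the other AML libraries. Its part in the Usp29 value was not tested.

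With this library included, Peg3 was not called between AML and whole marrow (−2.02, SE 1.21, adjusted p = 0.152 by limma). Without it the difference was −3.19 with an adjusted p of 0.000165 by limma. Between lineage-negative and whole marrow it was −3.25 (SE 1.37, adjusted p = 0.0447 by limma). That call was lost in 13 of 19 alternatives, among them leaving out any whole marrow library or lineage-negative replicate 1, 2 or 3, with an adjusted p of up to 0.106 when 1 library was left out. With the receptor-gene signal subtracted, both differences turned positive, to 1.42 and 0.11, and neither was called. Between AML and lineage-negative marrow the difference was 1.23 (SE 1.21, adjusted p = 0.432 by limma), and 0.06 without AML replicate 6. Peg3 was above 10 in 5 libraries, 4 of them whole marrow, and passing the filter in this way favours lower calls against that group.

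Mest, at chr6:30723547-30748465 (plus strand), encodes an enzyme of the alpha/beta hydrolase fold and was low in all 3 groups. Its counts were 9.47, 14.8, 24.2 and 10.4 in whole marrow and 11.3, 6.02, 21.9 and 20.6 in lineage-negative marrow, and in AML they ranged from 8.47 to 26.1 with a median of 15.2. The 3 groups overlapped. The means were 17.4 ± 6.55 (SD, n = 7), 14.7 ± 6.72 (n = 4) and 14.96 ± 7.59 (n = 4) in AML, whole and lineage-negative marrow. As deposited no difference was called, and the SE of 0.42 to 0.47 on the log2 scale shows how large a difference could have been missed. AML differed by 0.23 from whole marrow and by 0.27 from lineage-negative marrow, and the latter by −0.04 from whole marrow. The sign of the difference from whole marrow changed with the scaling for both AML and lineage-negative marrow. Leaving out single libraries changed the sign between AML and lineage-negative marrow and between both normal groups, but not between AML and whole marrow. With the receptor-gene signal subtracted, Mest was called higher than whole marrow in AML (1.84, adjusted p = 0.0131 by limma) and in lineage-negative marrow (1.61, adjusted p = 0.0474).

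Of the 8 members tested, 4 were called in AML against whole marrow, all lower, beside 38.5% of all genes called in that comparison and 11.3% called lower. The groups did not overlap for Meg3 and Dlk1, 2 of 8, beside 43.7% of all genes, and the adjusted p was under 0.05 for 4 of 8 beside 63.5%. In AML against lineage-negative marrow 2 of 8 were called, Grb10 lower and Cdkn1c higher, beside 30.3% of all genes (17.7% higher and 12.5% lower). Grb10 was the 1 member whose groups did not overlap, beside 34.6% of all genes, and with Igf2r 3 of 8 had an adjusted p under 0.05, beside 45.1%. In lineage-negative against whole marrow 5 of 8 were called, Grb10 higher and Meg3, Dlk1, Igf2 and Peg3 lower, beside 50.3% of all genes (33.1% higher and 17.2% lower). The same 5 did not overlap between the groups, beside 57.7% of all genes, and with Igf2r 6 of 8 had an adjusted p under 0.05, beside 63.3%. Dlk1, Igf2, Peg3 and Meg3 passed the filter mainly through their whole marrow values, so that these counts do not bear on the members as a group. The 3 comparisons share their samples in pairs and are not independent.

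**Figure D3:**
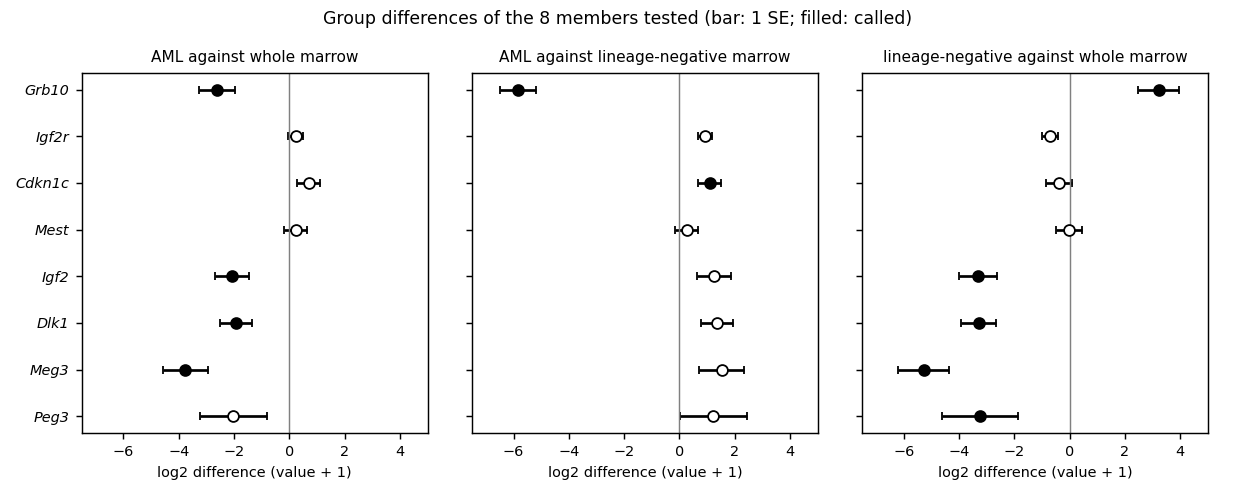
Differences between groups in log2(value + 1) for the 8 members tested, with bars of 1 SE and filled points for called differences. Grb10 is at −5.84 between AML and lineage-negative marrow and at 3.21 between both normal groups, and Mest lies between −0.04 and 0.27 throughout.

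Ordered by mean level per kb, the members in AML ran from Igf2r (164) through Cdkn1c (11.4), Peg3 (11.1, from 1 library), Grb10 (4.75, raised by the same library) and Mest (4.40) to Igf2 (1.31), H19 (1.13), Dlk1 (1.05), Meg3 (0.463) and Ndn (0.328). By medians over the AML libraries Grb10 (2.603) came after Mest (3.85). In lineage-negative marrow Grb10 (150) and Igf2r (82.0) led and their libraries did not overlap, followed by Cdkn1c (5.05), Mest (3.79) and H19 (2.46, from 1 library). In whole marrow Igf2r (134) and Grb10 (15.95) were followed by 8 members between 2.38 and 6.95. In lineage-negative marrow Ndn (1.99) came next, with all its libraries above those of Igf2 (0.332), Dlk1 (0.274), Peg3 (0.231) and Meg3 (0.207, from 1 library). Apart from that step and those around Igf2r and Grb10, neighbours in each order had overlapping libraries.

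The other genes of the members' imprinted domains did not all move with them. This grouping by domain was added after the values had been seen. Slc22a3, a transporter gene in the Igf2r domain, was at 1129, 1517, 1485 and 1097 in lineage-negative marrow and between 19.1 and 48.1 in AML, a log2 difference of −5.20 (SE 0.27, adjusted p = 4.82e-11 by limma), whereas the difference of Igf2r, 0.93, was in the other direction and was not called. Ddc, which encodes an amino acid decarboxylase and lies beside Grb10, was at 0 to 0.908 in lineage-negative marrow and at 4.31 to 14.6 in AML. The difference was 2.94 (SE 0.42, adjusted p = 9.54e-06 by limma), opposite to that of Grb10. Against whole marrow Ddc was called lower in AML, as Grb10 was (−1.27, SE 0.42, adjusted p = 0.0125 by limma). In the Cdkn1c domain, Phlda2 was at 14.98 to 23.8 in lineage-negative marrow and at 0 to 1.89 in AML, a difference of −3.97 (SE 0.48, adjusted p = 1.21e-06 by limma). Phlda2 passed the filter only through its lineage-negative values, which favours a lower call in AML. Kcnq1ot1, the long noncoding RNA of that domain, was at 2683 to 5678 and at 1264 to 1934 in these groups, lower in AML by −1.23 (SE 0.21, adjusted p = 9.39e-05 by limma), while Cdkn1c was higher. Slc22a18, Tssc4 and Ascl2 of that domain were not called between these groups.

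In the Ndn domain, Peg12 and Mkrn3 were also lower in AML than in lineage-negative marrow. Peg12 was at 67.9 to 145 in lineage-negative marrow and at 6.13 to 20.8 in AML (−2.88, SE 0.39, adjusted p = 5.95e-06 by limma). Mkrn3 was at 13.7 to 27.3 and at 0 to 9.44 (−2.40, SE 0.62, adjusted p = 0.00353 by limma). Mkrn3 passed the filter only through its lineage-negative values, which favours a lower call in AML. The other genes listed for the domain did not follow: Ube3a was not called (−0.43), and Magel2 and Snrpn were too low to be tested, with Magel2 at 0 in all 4 lineage-negative libraries. In the Dlk1 and Meg3 domain, Rian, Mirg and Rtl1 were each called lower than whole marrow in both AML and lineage-negative marrow, and with the receptor-gene signal subtracted Rian and Rtl1 were still called in both. Mirg and Rtl1 passed the filter only through their whole marrow values, which favours lower calls against that group. Dio3 of that domain was too low to be tested. Rian, a noncoding RNA that hosts small nucleolar RNAs, was at 72.3 to 130 in whole marrow, against 1.69 to 37.0 among the AML libraries and 0.881 to 17.0 among the lineage-negative ones. Its highest lineage-negative value, as for Meg3, was that of replicate 4. Usp29 and Zim1, beside Peg3, were at 0 in all 4 lineage-negative libraries, and Igf2os, antisense to Igf2, likewise.

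**Figure D4:**
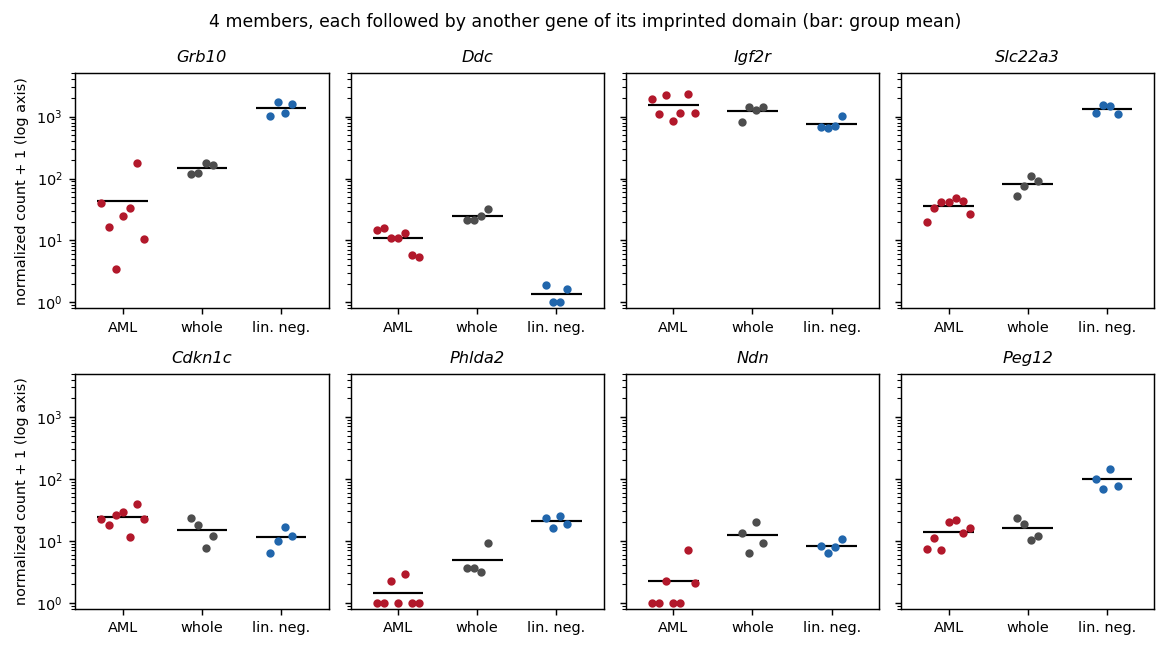
Normalized counts plus 1 (log axis) by library of Grb10, Igf2r, Cdkn1c and Ndn, each followed by another gene of its imprinted domain (Ddc, Slc22a3, Phlda2 and Peg12), with group means as bars. Slc22a3, Phlda2 and Peg12 are at their highest in lineage-negative (lin. neg.) marrow, where Ddc is at 0.908 or less.

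Of 31 other imprinted genes tested, 8 (25.8%) were called lower in AML than in lineage-negative marrow and 3 (9.68%) higher, beside 12.5% and 17.7% of all genes, with a median difference of −0.01 beside 0.02 over all genes. The lower genes were Slc22a3, Phlda2, Peg10, Ppp1r9a, Peg12, Mkrn3, Sgce and Kcnq1ot1, and the higher ones Ddc, Plagl1 and Inpp5f. Among the lower ones, Phlda2 and Mkrn3 passed the filter only through lineage-negative marrow. Plagl1, a zinc finger gene known to regulate other imprinted genes, was at 0.881 to 8.48 in lineage-negative marrow and at 12.7 to 53.1 in AML. Against whole marrow 11 (35.5%) were called lower in AML and 3 (9.68%) higher, beside 11.3% and 27.3% of all genes. Among those lower, Mirg, Rtl1 and Zim1 passed the filter only through whole marrow. Of the 3, Slc22a18 alone remained higher with TMM, and with the receptor-gene signal subtracted the counts were 4 lower and 8 higher. Lineage-negative marrow had 10 (32.3%) higher and 8 (25.8%) lower than whole marrow, beside 33.1% and 17.2% of all genes.

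Of 15 genes of IGF signalling tested, 4 (26.7%) were higher and 2 (13.3%) lower in AML than in lineage-negative marrow, beside 17.7% and 12.5% of all genes. Igf1, the ligand of IGF1R, was at 30.4 to 106 in AML, 1.76 to 10.4 in lineage-negative marrow and 91.5 to 162 in whole marrow. Its difference between AML and lineage-negative marrow was 3.21 (SE 0.40, adjusted p = 1.82e-06 by limma). The binding protein genes Igfbp5 and Igfbp6 were also called higher, by 2.49 and 2.76, and Igfbp4 lower, with a difference of −1.51. The median of the 15 was 0.47. Hmga2, a chromatin protein of fetal stem cells, was lower in AML by −2.46 (SE 0.54, adjusted p = 0.000988 by limma). Igf1r itself had means of 2620 ± 765 (SD, n = 7) in AML, 2243 ± 656 (n = 4) in whole marrow and 4353 ± 1234 (n = 4) in lineage-negative marrow and was not called against AML in either comparison (0.23 and −0.73). Against whole marrow 1 of the 15 (6.67%) was higher in AML and 4 (26.7%) lower, beside 27.3% and 11.3% of all genes.

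Of 12 genes that maintain imprints, 3 (25%) were lower and 1 (8.33%) higher in AML than in lineage-negative marrow, beside 12.5% and 17.7% of all genes, with a median difference of −0.64. Dnmt3b, a de novo DNA methyltransferase, had a difference of −1.91 (SE 0.25, adjusted p = 3.84e-06 by limma). Trim28, the corepressor that keeps imprints methylated, was lower by −1.15 and Uhrf1, which brings DNMT1 to replicating DNA, by −1.04. Dnmt3l was higher, with a mean of 21.5 in AML and 3.38 in lineage-negative marrow. Against whole marrow 2 of the 12 (16.7%) were higher in AML and 0 lower, beside 27.3% and 11.3% of all genes. Lineage-negative marrow had 6 (50%) higher and 1 (8.33%) lower than whole marrow, beside 33.1% and 17.2% of all genes. Of 20 genes of stem cell quiescence, 7 (35%) were lower in AML than in lineage-negative marrow and 2 (10%) higher, beside 12.5% and 17.7% of all genes, with a median of 0.01. Tek (−4.08) and Egr1 (−2.67) were among the lower ones, and Txnip (1.22) and Cdkn2c (1.01) were the higher ones. The call of Cdkn2c was lost in 9 of 23 alternatives and that of Txnip in 0. Hlf and Mecom, also lower, are among the stem and early progenitor markers too, and Tek is also an endothelial marker. Against whole marrow 5 of the 20 (25%) were higher in AML and 2 (10%) lower, beside 27.3% and 11.3% of all genes. Of 12 proliferation genes, 3 (25%, beside 12.5% of all genes) were lower in AML than in lineage-negative marrow, namely Mcm2, Ccne1 and Mcm5, with a median of −0.41. Against whole marrow 0 of these 12 were called in AML. The genes for the microRNAs Mir675, Mir483, Mir335 and Mir770, which lie within or beside members, were not among the genes of the table.

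The genes whose pattern over the 15 libraries was most like that of a called member were found by the smallest mean absolute difference of centred log2 values, among 12689 or 12690 genes with a mean of at least 50. For Grb10 they were Tfr2, at 0.62, and Pcdh7, at 0.63. Tfr2, which encodes transferrin receptor 2, had means of 39.3 in AML, 204 in whole marrow and 1470 in lineage-negative marrow. For Igf2 they were Cxcl12 (0.61) and Gas6 (0.72), for Dlk1 Gch1 (0.70) and H2bu2 (0.71), for Cdkn1c Dennd2d and Sc5d (both 0.39), and for Meg3 Gm4117 (1.10) and Igf1 (1.11). The nearest genes of Meg3 were farther from it than those of the other 4 members were from them.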

How the data were processed

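Per the labels' protocols, RNA was extracted with TRIzol and sequenced as TruSeq Stranded Total RNA libraries. The submitters' processing notes name Partek, STAR, DESeq2 and mm10. The authors deposited 1 signal per gene and library: estimated counts divided by a DESeq2 size factor of the poscounts type, per the table's name. Whether strand was used in counting is not given in the sources used here. The table's starts are not those of GRCm38 (0 of 10 members share theirs), so coordinates come from GENCODE's GRCm38 annotation by gene identifier.

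Of the low values, 81.5% to 86.8% per library were whole multiples of a step within 0.02 of it, so whole reads were not recovered and count tests were not run. Read numbers are values divided by that step. One limma 3.58.1 fit (R 4.3.3) of 3 group means used log2(value + 1) with a mean-variance trend, two-sided, adjusted over 18941 genes kept at 10 or more in at least 4 libraries. The procedure was tested on simulated data.

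The members, gene lists and alternatives were chosen with earlier results of these data known. The text names all members, up to 3 called genes per list, direction and comparison, list genes overlapping a member, and the 2 genes most like each member called in a comparison with AML. One gene that this rule names is not reported here. Further genes of the members' domains were named after their values were seen. Alternatives were pseudocounts of 0.1 and 5, all genes detected, a mean filter at 50, scaling by TMM, quantiles or the median, subtraction of the signal per kb of 1750 receptor genes, pairwise fits, array weights, a replicate block and leaving out each library. Leaving out AML replicates 5 and 6 together was added after seeing the data.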

Additional observations from a re-analysis of the deposited data

Results flagged for a closer look

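In 8 of the 30 groups of member values, the highest library stood far from the rest of its group, by a gap that takes up more of the group's range than Dixon's critical value allows. For normally distributed values chance gives this in about 1 of 20 groups, and the rate for low counts with zeros, as here, was not tested. AML replicate 6 was the highest of its group for Peg3 (1012, next 9.80), Grb10 (179, next 39.4) and Ndn (6.17, next 1.23). Lineage-negative replicate 4 was the highest of its group for H19 (21.5, next 1.76), Meg3 (15.01, next 0) and Igf2r (1014, next 702). For Igf2, AML replicate 4 was at 21.1 (next 8.64) and lineage-negative replicate 1 at 4.54 (next 1.31).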

How the results depend on the processing

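Over 505 values of the members' 24 differences under an alternative, 436 kept their direction and their side of the threshold, 29 lost a call, 18 gained one and 22 changed sign. Grb10 kept its call in all 3 comparisons under each alternative, and Meg3 both its calls against whole marrow under each in which it was tested (the mean filter at 50 removed it). The number of members called in AML against lineage-negative marrow fell from 2 to 1 with pseudocount 5, TMM or quantile scaling, the receptor-gene signal subtracted, a mean of at least 50, or the replicate block, and was 1 to 3 when single libraries were left out (1 without AML replicate 6 or lineage-negative replicate 1 or 2, and 3 without AML replicate 3 or 7 or lineage-negative replicate 4). With a mean of at least 50, which keeps few members, it was 1 in both other comparisons. Leaving out single libraries gave 4 to 5 in each of them. Of the differences that changed sign, Peg3 in lineage-negative against whole marrow was a call. Sign changes were as follows, and the cause was not tested. Igf2r in AML against whole marrow was −0.056 with array weights, −0.52 with quantile scaling, −0.44 relative to the median of all genes and −0.47 with TMM. Cdkn1c in lineage-negative against whole marrow was 0.31 with array weights, 0.31 with the receptor-gene signal subtracted and 0.56 with quantile scaling. Mest in AML against whole marrow was −0.13 with array weights, −0.44 relative to the median, −0.42 with TMM, −0.044 with the replicate block and −0.020 without AML replicates 5 and 6, an alternative chosen after seeing the data. Mest in AML against lineage-negative marrow was −0.084 with array weights, −0.0052 with the replicate block and −0.077 to 0.49 when single libraries were left out (negative without lineage-negative replicate 2). Mest in lineage-negative against whole marrow was 0.73 with quantile scaling, and −0.26 to 0.31 when single libraries were left out (0.03, 0.31 and 0.22 without lineage-negative replicate 1 or 2 or whole marrow replicate 3). With the receptor-gene signal subtracted it was 1.61 and was called (adjusted p = 0.0474 by limma). Peg3 with that signal subtracted was 1.42 in AML and 0.11 in lineage-negative marrow, each against whole marrow. Of all genes called in AML against whole marrow, 70.8% were higher in AML as deposited, 22.8% with TMM and 52.0% with quantile scaling. In lineage-negative against whole marrow 65.8% were higher as deposited, 30.7% with TMM and 54.2% with quantile scaling.

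Replicate numbers are shared by the groups with no stated meaning. Of 12 pairs with the same number, 2 had a correlation of deviations over 0.1, and 2 of 12 libraries matched their own number best, so the samples were not treated as paired. With the replicate block, 5 members were called in AML against whole marrow (Peg3 added, −3.06), 1 in AML against lineage-negative marrow (Cdkn1c lost, adjusted p = 0.0689 by limma) and 5 in lineage-negative against whole marrow. Whole marrow was the shallowest group, and members near the floor of 3 reads limit what the depth can show.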
